A study of Mus musculus with 18 samples.

Results

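The genes described here encode subunits of the ionotropic glutamate receptors of the AMPA and NMDA types. They are the 10 genes Gria1, Gria2, Gria3, Gria4, Grin1, Grin2a, Grin2b, Grin2c, Grin2d and Grin3a, of 55291 gene symbols measured. They were taken by symbol as members of these families, with earlier results of these data known. All mice were wild-type C57BL/6J males that received AAV_DJ-GfaABC1D-EGFP-Rpl10a in the right CA3 region at 6 weeks of age. This virus expresses a GFP-tagged ribosomal protein from an astrocyte promoter, so that an anti-GFP antibody pulls down ribosomes, with the mRNA on them, from labeled cells. In the KA group, 50 nL of 20 mM kainic acid, a glutamate receptor agonist used to model mesial temporal lobe epilepsy, was given into the right dentate gyrus 2 weeks after the virus, and tissue for RNA was taken 14 days after KA. The AAV control received no further injection and its RNA was collected 2 weeks after the AAV, whereas the PBS group received PBS after the AAV. The time from PBS to RNA is not stated in the sources used here. Each group had 3 samples (#1, #2, #3), each a pool of right hippocampi from 3 to 4 mice. Each homogenate gave an immunoprecipitated library (IP) and an input library of the whole hippocampus, 18 libraries in all. Samples #1 and #2 of KA and AAV control were sequenced in run 1, samples #3 in run 2, and all PBS samples in run 3, so that any difference from the PBS group cannot be told apart from one between runs. The KA group also differed from AAV control by a second injection and by a longer time from AAV to RNA. In that comparison, effects of surgery, age or time after the virus cannot be told apart from those of KA.

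AMPA receptors are tetramers of the products of Gria1 to Gria4 and carry most fast excitatory current in the brain. The Gria2 product, after RNA editing, makes these channels nearly impermeable to calcium. NMDA receptors combine an obligatory GluN1 subunit, encoded by Grin1, with GluN2 subunits from Grin2a to Grin2d or with the GluN3 subunit of Grin3a. Those made of GluN1 and GluN2 need both glutamate and a co-agonist to open. In the adult hippocampus GluN2A and GluN2B predominate in principal neurons. GluN2C is best known from cerebellar granule cells, and its transcript has also been described in astrocytes. GluN2D is found in interneurons, and GluN3A is abundant in the young brain and lowers calcium flow through the receptor.

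The labels give hippocampal astrocyte as the cell type of every library, although the input is the whole homogenate. Library totals ranged from 7991681 to 16032180 counts. All 11 astrocyte markers were called higher in IP than in input in every group. Of all genes, 13.3% were in AAV control, 14.8% in PBS and 8.11% in KA. The summed FPKM of these markers was 6521 to 12077 in IP and 551 to 1459 in input. The IP libraries were not free of neuronal RNA. The summed FPKM of 10 pan-neuronal markers was 162 to 187 in AAV control IP, 148 to 248 in PBS IP and 336 to 406 in KA IP, against 915 to 1303 in input, and none of these markers was at 0 in any library. Oligodendrocyte markers were also higher in KA IP, with sums of 1373 to 2688 against 267 to 1156 in both control groups. KA IP #3 carried an interneuron marker sum of 3087 against 312 and 643 in the other KA IP libraries. Most of this sum was 1 gene, Npy, at a mean of 1265 of 1347 FPKM in KA IP. Another marker of that list, Sst, went the other way, with means of 169, 177 and 15.9 FPKM in AAV control, PBS and KA IP. What part these RNAs had in the subunit values was not tested. In such pooled tissue, fewer cells of a type and less RNA per cell cannot be told apart.

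The 10 genes lie on 9 chromosomes of the mouse genome (GRCm38, GENCODE annotation). Gria1 is at chr11:57011387-57330244 on the plus strand, Gria2 at chr3:80681450-80802835 on the minus strand, Gria3 at chrX:41400854-41678601 on the plus strand and Gria4 at chr9:4417896-4796234 on the minus strand. Grin1 is at chr2:25291181-25319187, Grin2a at chr16:9567898-9995560, Grin2b at chr6:135713233-136173511, Grin2c at chr11:115249169-115267243, Grin2d at chr7:45831883-45878378 and Grin3a at chr4:49661611-49845744, all on the minus strand. Grin2c and Grin1 span the least genome, 18075 and 28007 bases, against 460279 bases for Grin2b. Grin2d overlaps Kdelr1 on the opposite strand, which had 224 to 450 counts per library, and Grin3a contains Ppp3r2, with 1 to 11 counts. Whether the counting used strand is not given in the sources used here, so that reads of Grin2d and Kdelr1 may not have been separated.

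RefSeq promoter sequences (GRCm38.p6) were at hand for 5 of the 10 genes, Gria2, Gria4, Grin1, Grin2c and Grin2d. The 250 bases before the start are shown for Grin2c, the subunit whose IP and input values differed most, and for Grin1, the obligatory subunit of the same receptor. The Grin2c window is at chr11:115267244-115267493 and the Grin1 window at chr2:25319188-25319437. Both are on the minus strand and are written 5′ to 3′, with the GC box GGGCGG (or CCGCCC on the other strand) and the E-box CACGTG in capitals.
Grin2c: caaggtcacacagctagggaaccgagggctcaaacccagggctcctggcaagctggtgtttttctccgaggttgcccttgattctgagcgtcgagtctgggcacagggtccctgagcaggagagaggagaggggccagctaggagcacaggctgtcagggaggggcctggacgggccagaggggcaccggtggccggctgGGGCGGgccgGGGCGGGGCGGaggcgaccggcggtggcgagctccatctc
Grin1: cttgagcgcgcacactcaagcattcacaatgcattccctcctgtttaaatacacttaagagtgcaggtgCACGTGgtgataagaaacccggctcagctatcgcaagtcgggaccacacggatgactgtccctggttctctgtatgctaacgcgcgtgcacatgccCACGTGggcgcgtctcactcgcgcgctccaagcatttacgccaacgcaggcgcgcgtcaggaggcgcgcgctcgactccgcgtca
The Grin2c window was 68.8% G and C and held 3 GC boxes, the last of them overlapping the one before by 1 base, and no CACGTG. The Grin1 window was 58.8% G and C and held 2 CACGTG and no GC box. Of 32851 promoter windows of this length, 32.742% held the GC box letters and 6.021% held CACGTG. Neither window held TATAAA or TGACGTCA. These matches are letters in a window and were not tied to any value below.

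Of the 10 subunits, 9 had FPKM above 1 in all 18 libraries, so none of these entered a comparison through 1 group alone. Grin2d was at 0.795 to 1.16 FPKM in input and 0.135 to 0.715 in IP, from 10 to 94 counts, and did not reach the FPKM minimum in any comparison. FPKM divides by a fixed gene length, so the order between genes depends on it. Gria1 had the highest mean FPKM in the input of all 3 groups, at 103 in AAV control, 99.3 in PBS and 58.3 in KA. Gria2 came next at 49.2, 42.6 and 32.9, and in each group every library of Gria1 lay above every library of Gria2. In AAV control input, Grin2b (23.7), Grin2a (19.1) and Gria3 (17.5) followed with overlapping libraries. They were followed by Grin1 (7.73) and Gria4 (5.36), and then by Grin3a (2.67) and Grin2c (2.45), whose libraries overlapped. In KA input the order of these 2 was turned, with Grin2c (3.44) above Grin3a (2.35) without overlap, and Gria3 (12.9) stood above Grin2a (10.8).

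In IP the order differed. Gria2 had the highest mean in AAV control IP (47.8 FPKM) and PBS IP (57.1), ahead of Gria1 (32.2 and 39.5), but the libraries of the 2 genes overlapped in both groups. Grin2c followed in AAV control IP with 19.3 FPKM and overlapped Gria3 (8.75), which overlapped Grin2b (8.41), which overlapped Grin2a (6.78). In PBS IP, Gria3 (12.8), Grin2a (11.3), Grin2c (11.3) and Grin2b (11.2) could not be ordered beyond their spread. In KA IP, Gria1 (23.2) and Gria2 (20.8) overlapped, and Grin2b (7.94), Grin2c (6.92), Gria3 (6.77) and Grin2a (6.15) overlapped at the next level. Grin3a was at 3.80, 3.36 and 1.15 FPKM in AAV control, PBS and KA IP, and in KA IP every library lay below every library of Grin1 (3.48).

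**Figure D1:**
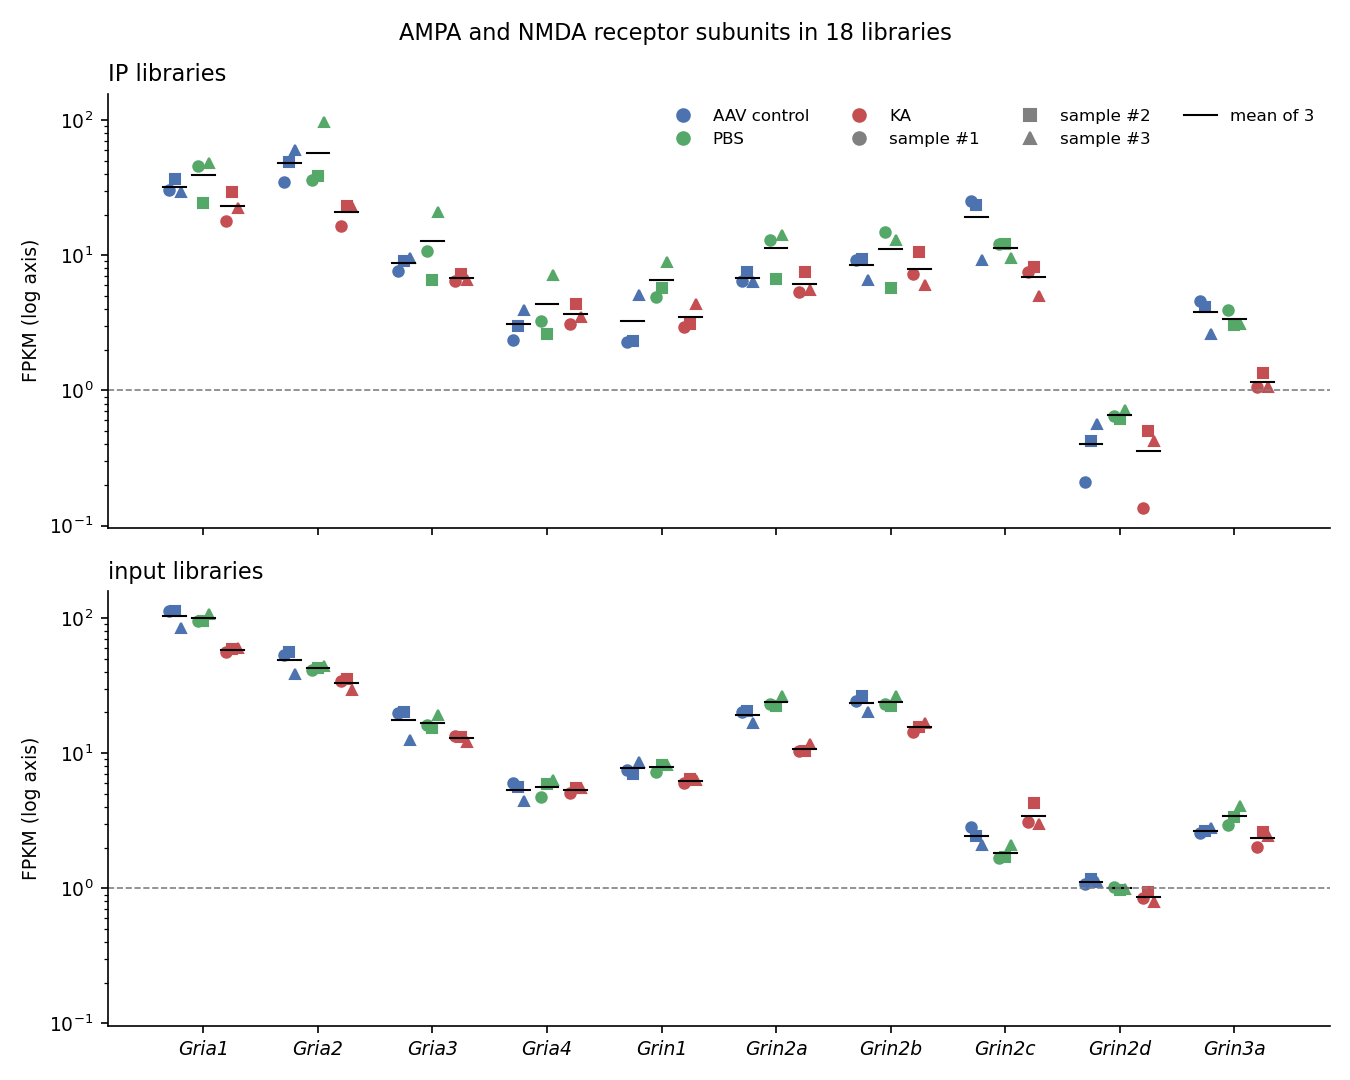
FPKM (log axis) of the 10 subunits in each library, with AAV control, PBS and KA side by side for IP and for input. Gria2, Grin2c and Grin3a in KA IP lie below all control IP libraries. In KA input, Gria1, Gria2, Grin1, Grin2a, Grin2b and Grin2d lie below all control input libraries.

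The comparison of IP with input asked which subunit transcripts were enriched on astrocyte-labeled ribosomes. A gene was called when its adjusted p (edgeR) was under 0.05 and its absolute log2 fold change at least 1. Grin2c was the subunit called higher in IP, in all 3 groups. In AAV control it had 25.2, 23.5 and 9.19 FPKM in IP and 2.83, 2.43 and 2.08 in input, so that the lowest IP library was above the highest input library. The log2 difference of IP from input was 3.10 (SE 0.347, adjusted p = 0.000424), or 8.59-fold. In PBS, Grin2c had 12.1, 12.2 and 9.53 FPKM in IP and 1.68, 1.72 and 2.11 in input, a log2 difference of 2.78 (SE 0.211, adjusted p = 1.29e-06). In KA it had 7.56, 8.20 and 4.999 FPKM in IP and 3.10, 4.25 and 2.98 in input, again without overlap, but the log2 difference was 1.21 (SE 0.181, adjusted p = 0.00148), or 2.32-fold.

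The other subunits did not share this excess. Gria1, Grin2a and Grin2b were called lower in AAV control IP than input, with log2 differences of -1.52, -1.34 and -1.35 (adjusted p = 0.00052, 0.00056 and 0.00102). Thus 1 of 9 tested subunits was called higher and 3 lower in AAV control, where 13.3% of all 9961 genes tested were called higher and 13.1% lower. In PBS the counts were 1 higher and 1 lower (all genes, 14.8% and 12.3%), the lower gene being Gria1 (-1.23, adjusted p = 0.000631). Grin2a (-0.99, adjusted p = 0.00245) and Grin2b (-0.99, adjusted p = 0.00818) lay just short of the size limit there, and both were called when the homogenate was a block (-1.02 and -1.07, adjusted p = 2.46e-05 and 4.5e-05). In KA the counts were also 1 higher and 1 lower (all genes, 8.11% and 4.51%), and Gria1 was the lower gene (-1.11, adjusted p = 0.00361), missing the size limit only without KA IP #1 (-0.93).

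Gria2 was unlike Gria1 in this ratio. Its IP to input ratios of FPKM were 0.651, 0.878 and 1.56 in AAV control, 0.872, 0.915 and 2.19 in PBS and 0.476, 0.658 and 0.781 in KA, and its log2 difference of IP from input did not pass the test in any group (0.14, 0.49 and -0.43, adjusted p = 0.73, 0.177 and 0.119, the KA value reaching 0.0219 with the homogenate as a block). Only samples #3 of the control groups exceeded 1. Grin1, by contrast, had ratios of 0.306, 0.331 and 0.590 in AAV control, a log2 difference of -1.06 (adjusted p = 0.0604). With the homogenate as a block it was called lower (-1.18, adjusted p = 0.000919), as it was without AAV control IP #3 (-1.65, adjusted p = 0.000821). In PBS its ratios were 0.676, 0.709 and 1.09 (-0.16, adjusted p = 0.436), and in KA 0.490, 0.483 and 0.696 (-0.61, adjusted p = 0.0563, or 0.00243 with the block).

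Grin3a was near the input level in control IP and below it in KA. Its ratios were 1.79, 1.56 and 0.943 in AAV control, 1.34, 0.906 and 0.764 in PBS and 0.529, 0.513 and 0.439 in KA. The log2 difference of IP from input was 0.64 in AAV control (adjusted p = 0.0405, under 0.05 in 2 of 6 fits without 1 library and up to 0.152), 0.12 in PBS (adjusted p = 0.585) and -0.81 in KA (adjusted p = 0.0066). Every KA homogenate was below every control homogenate. Gria3 and Gria4 had ratios of 0.382 to 1.10 and 0.387 to 1.13 over all 9 homogenates. Grin2d ratios were 0.158 to 0.723, so all 9 homogenates had less Grin2d in IP than in input, with counts too low for the filtered test.

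**Figure D2:**
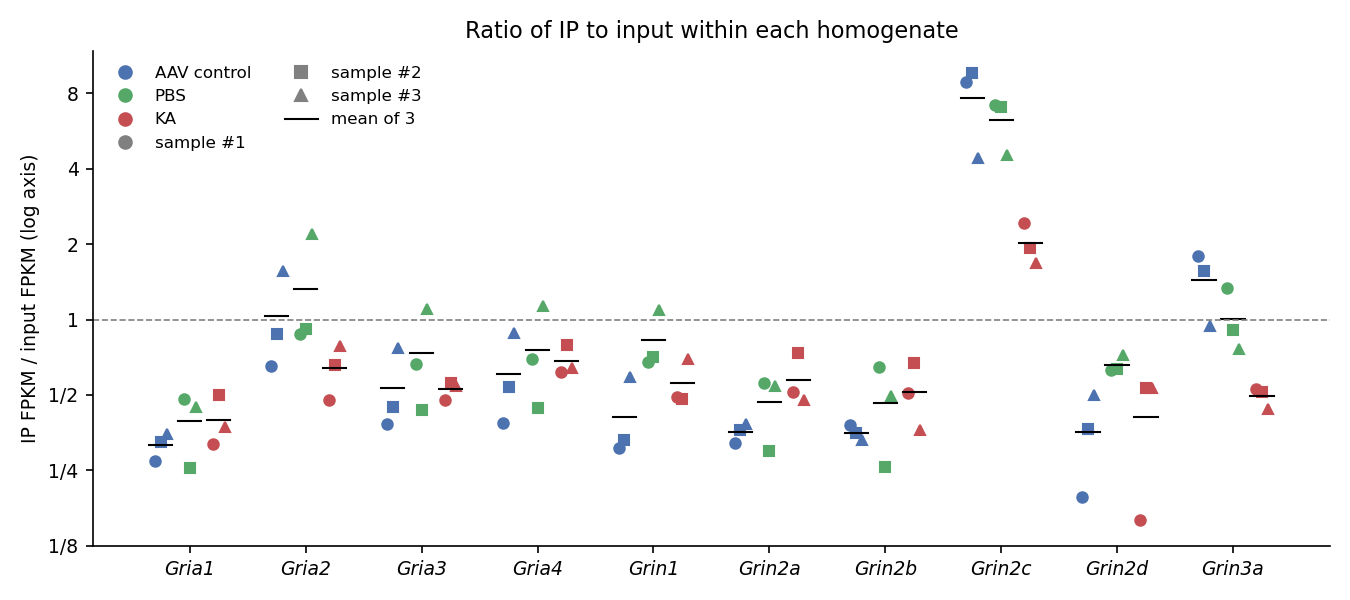
Ratio of IP to input FPKM (log axis) for each subunit and homogenate in AAV control, PBS and KA, with each group mean as a horizontal line. Grin2c is the only subunit above 1 in all 9 homogenates, at 4.41 to 9.64 in the controls and 1.68 to 2.44 in KA.

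The comparison of KA with its controls within IP asked which subunit transcripts on labeled ribosomes differed 14 days after KA. Against AAV control, 0 of 9 tested subunits were called higher and 3 were called lower, Grin3a, Grin2c and Gria2. Of all 9729 genes tested, 6.39% were called higher and 5.22% lower. Against PBS, 0 were called higher and 2 lower, Grin3a and Gria2, where 8.08% of 9847 genes were higher and 9.34% lower. With an adjusted p under 0.05 and no size limit, 7 of 9 subunits were lower against PBS (all genes, 18.9%). Median log2 fold changes of the 9 subunits were -0.32 against AAV control and -0.85 against PBS, beside -0.02 and -0.01 over all genes. These comparisons share the KA libraries.

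Grin3a, the GluN3A gene, fell in KA IP against both controls. It was at 4.63, 4.14 and 2.63 FPKM in AAV control IP, 3.97, 3.04 and 3.09 in PBS IP and 1.06, 1.34 and 1.06 in KA IP. The KA libraries did not overlap either control group. The log2 fold change was -1.65 (SE 0.213, adjusted p = 0.00238) against AAV control and -1.55 (SE 0.197, adjusted p = 0.000343) against PBS, 3.13-fold and 2.92-fold lower. Grin3a remained called when any 1 of the 6 libraries of either comparison was left out, and within run 1 alone, with 2 samples against 2, it fell by 1.81 (adjusted p = 6.39e-06). Its counts in KA IP were low, 143 to 171 per library.

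Grin2c, the subunit enriched in IP, was also lower in KA IP. The FPKM values given above, 7.56, 8.20 and 4.999 in KA IP, were below all of those in AAV control IP (25.2, 23.5 and 9.19) and in PBS IP (12.1, 12.2 and 9.53). AAV control IP #3, from run 2, was well below its group. The log2 fold change was -1.41 (SE 0.331, adjusted p = 0.0223) against AAV control and -0.73 (SE 0.213, adjusted p = 0.0215) against PBS, the latter under the size limit. The call against AAV control depended on the library left out: without KA IP #1, #2 or #3 or AAV control IP #1 or #2 the adjusted p was 0.0651 to 0.0804 at log2 fold changes of -1.51 to -1.19, and without AAV control IP #3 it was 0.000378 at -1.72. Within run 1 the log2 fold change was -1.56 (adjusted p = 2.22e-06), and run 2, with 1 sample per group, gave 9.19 against 4.999 FPKM.

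Gria2 was the AMPA receptor subunit called lower in KA IP, at the size limit used. It was at 34.9, 49.0 and 59.6 FPKM in AAV control IP, 36.2, 38.8 and 96.2 in PBS IP and 16.4, 23.1 and 22.8 in KA IP, without overlap. The log2 fold change was -1.16 (SE 0.299, adjusted p = 0.0316) against AAV control and -1.40 (SE 0.355, adjusted p = 0.0115) against PBS. PBS IP #3 was far above the other PBS libraries, and without it the value against PBS was -0.92 (adjusted p = 0.0271), under the size limit. Without KA IP #1 that comparison gave -1.21 (adjusted p = 0.0528). Against AAV control Gria2 remained called only without AAV control IP #1 (-1.37, adjusted p = 0.035). It was -0.97 (adjusted p = 0.116) without KA IP #1, -1.19 (0.1) without KA IP #2, -1.30 (0.0516) without KA IP #3, -1.18 (0.0784) without AAV control IP #2 and -0.89 (0.027) without AAV control IP #3. In run 1 it was -1.02 (adjusted p = 0.00132).

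The remaining AMPA receptor subunits moved less in IP. Gria1 was at 30.5, 36.6 and 29.5 FPKM in AAV control IP, 46.1, 24.2 and 48.1 in PBS IP and 17.9, 29.5 and 22.2 in KA IP, so that KA IP #2 lay within the PBS range and just under the lowest AAV control library. Its log2 fold change was -0.42 (adjusted p = 0.222) against AAV control and -0.74 (adjusted p = 0.0456) against PBS. Gria3 gave -0.32 (adjusted p = 0.253) and -0.86 (adjusted p = 0.0405), the latter moving to -0.41 (adjusted p = 0.149) without PBS IP #3. Gria4, expressed at 2.34 to 7.10 FPKM in all IP libraries, gave 0.27 (adjusted p = 0.513) and -0.20 (adjusted p = 0.621).

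Of the other NMDA receptor subunits, Grin1 was at 2.29, 2.34 and 5.10 FPKM in AAV control IP, 4.94, 5.76 and 8.92 in PBS IP and 2.96, 3.09 and 4.39 in KA IP. AAV control IP #3 was above every KA IP library and AAV control IP #1 and #2 were below them all. The log2 fold change was 0.14 (SE 0.397, adjusted p = 0.847) against AAV control, and in run 1 alone it was 0.45 (adjusted p = 0.0191). Against PBS it was -0.87 (SE 0.252, adjusted p = 0.0208). Grin2a was at 6.48, 7.48 and 6.38 FPKM in AAV control IP, 13.0, 6.71 and 14.2 in PBS IP and 5.32, 7.54 and 5.58 in KA IP. PBS IP #2 was within the KA range. Grin2a gave -0.09 (adjusted p = 0.775) against AAV control and -0.85 (adjusted p = 0.02) against PBS. Grin2b gave -0.03 (adjusted p = 0.945) and -0.47 (adjusted p = 0.238), its PBS IP libraries ranging from 5.73 to 14.8 FPKM. The adjusted p of Gria1, Gria3, Grin1, Grin2a and Grin2c against PBS was under 0.05 with all libraries, and for each of these genes it was above 0.05 without at least 1 library (0.19, 0.149, 0.0832, 0.0915 and 0.0741 at the highest). Grin2d, in a fit without the FPKM minimum, gave -0.05 (adjusted p = 0.978) and -0.68 (adjusted p = 0.218).

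In the input the pattern was different. Against AAV control, 0 of 9 subunits were called higher and 0 lower (all 10809 genes, 2.52% and 0.185%), and Gria1 and Grin2a passed the adjusted p without reaching the size limit (all genes lower by that rule, 0.944%). An unadjusted p under 0.05 was found for 6 of the 9 subunits and for 1939 of all 10809 genes. Against PBS, 1 subunit, Grin2a, was called lower (all 10849 genes, 1.09%) and 0 higher (4.26%). By the adjusted p alone 7 subunits were lower there, where 12.2% of all genes were, and Grin2c was higher, where 15.5% were. The median log2 fold changes of the 9 subunits were -0.43 and -0.39.

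Grin2a, encoding GluN2A, was at 20.1, 20.7 and 16.6 FPKM in AAV control input, 23.2, 22.5 and 26.3 in PBS input and 10.3, 10.3 and 11.7 in KA input. All KA libraries were below all controls. The log2 fold change was -0.81 (SE 0.157, adjusted p = 0.0285) against AAV control and -1.16 (SE 0.124, adjusted p = 9.7e-05) against PBS, and the call against PBS remained without any 1 of its 6 libraries. In run 1, with 2 samples against 2, the value against AAV control was -0.98 (adjusted p = 1.08e-10). In both groups the input libraries #1 and #2 were closer to each other than to #3, so p-values from run 1 hold only the spread within that run. Gria1, encoding GluA1, was at 112, 112 and 84.7 FPKM in AAV control input, 95.8, 94.4 and 108 in PBS input and 56.1, 59.2 and 59.7 in KA input, again without overlap. It gave -0.81 (SE 0.159, adjusted p = 0.0308) against AAV control, -0.77 (adjusted p = 0.00091) against PBS and -0.96 (adjusted p = 2.26e-10) in run 1. Against AAV control, leaving out 1 library gave log2 fold changes of -0.94 to -0.75 for Grin2a and -0.88 to -0.75 for Gria1, and the adjusted p stayed under 0.05 only without KA input #3 or AAV control input #3, rising to 0.183 and 0.2 otherwise.

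Grin2c went the other way in the input. It was at 2.83, 2.43 and 2.08 FPKM in AAV control input, 1.68, 1.72 and 2.11 in PBS input and 3.10, 4.25 and 2.98 in KA input. The KA libraries were above all control libraries. The log2 fold change was 0.50 (SE 0.179, adjusted p = 0.19) against AAV control, which did not pass the test, and 0.90 (SE 0.164, adjusted p = 0.00303) against PBS. In run 1 it was 0.49 (adjusted p = 0.0262). The summed FPKM of the astrocyte markers, 551 to 947 in control input and 1422 to 1459 in KA input, moved in the same direction, and its part in the Grin2c value was not tested.

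The other subunits had smaller differences in input. Grin2b was at 24.5, 26.5 and 20.1 FPKM in AAV control, 23.0, 22.3 and 26.4 in PBS and 14.3, 15.6 and 16.7 in KA input, without overlap. It gave -0.59 (adjusted p = 0.102, or 0.035 with the replicate number as a block) against AAV control and -0.63 (adjusted p = 0.00519) against PBS. Gria2 was at 53.5, 55.8 and 38.3, 41.5, 42.4 and 44.0, and 34.4, 35.2 and 29.2 FPKM in the same order of groups, also without overlap, and gave -0.57 (adjusted p = 0.116, or 0.0331 with the block) and -0.39 (adjusted p = 0.0255). Gria3 gave -0.43 (adjusted p = 0.241) and -0.39 (adjusted p = 0.0141), Grin1 -0.31 (adjusted p = 0.363) and -0.34 (adjusted p = 0.0221), and Grin3a -0.19 (adjusted p = 0.625) and -0.56 (adjusted p = 0.0101). Gria4 gave 0.01 and -0.08 (adjusted p = 0.983 and 0.634). The pan-neuronal marker sum was 1113 to 1303 in control input and 915 to 958 in KA input. When all 18 libraries shared 1 estimate of the spread, the adjusted p against PBS was 0.0574 to 0.521 for Grin1, Gria2, Gria3, Grin2b, Grin2c and Grin3a.

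**Figure D3:**
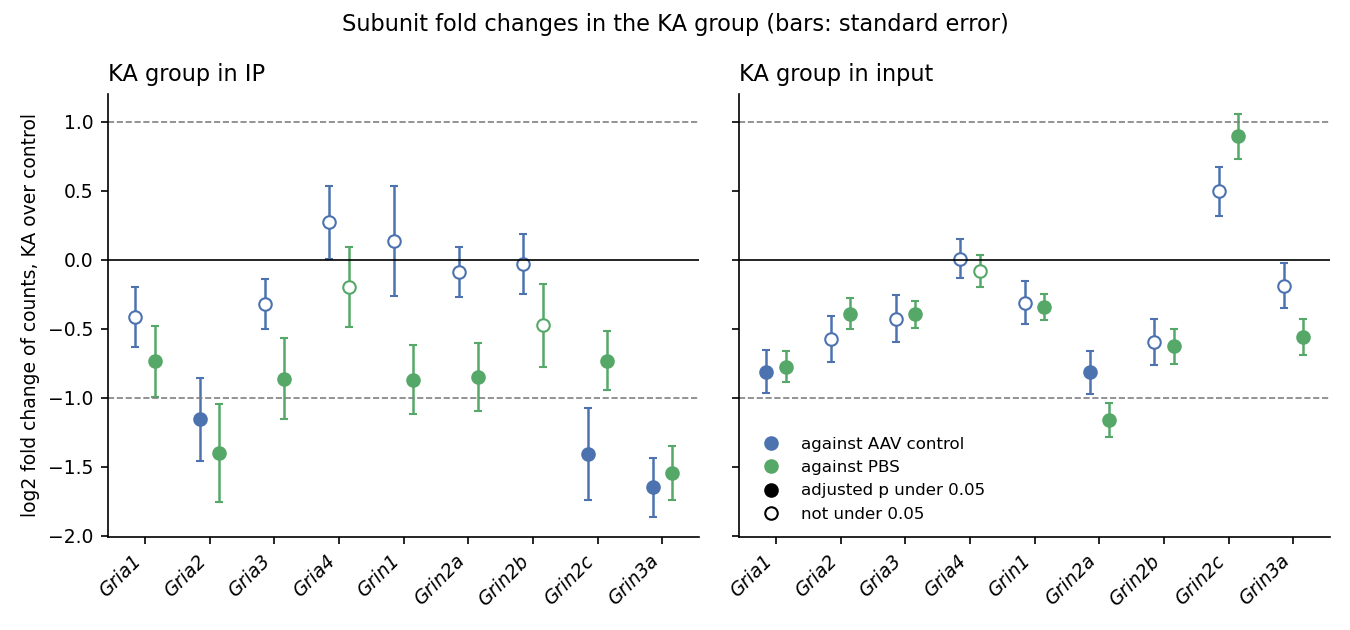
Log2 fold changes of KA against AAV control and against PBS for the 9 tested subunits, with standard errors, in IP and in input. Filled points have an adjusted p under 0.05 and dashed lines mark the size limit. In IP against AAV control the lowest values are those of Grin3a (-1.65), Grin2c and Gria2, and against PBS those of Grin3a (-1.55) and Gria2 (-1.40), whereas in input Grin2a (-1.16 against PBS) and Gria1 are lowest and Grin2c lies above 0.

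The difference between the KA effects in IP and in input was tested directly, since the same fold change in both would leave the IP to input ratio as it was. With AAV control as baseline, Grin2c (-1.89, SE 0.402, adjusted p = 0.00914) and Grin3a (-1.44, SE 0.258, adjusted p = 0.00359) were called lower, and 0 subunits were called higher. Of 9180 genes tested, 4.32% were called lower and 5.1% higher. With PBS as baseline the same 2 subunits were called lower, Grin2c with -1.64 (SE 0.284, adjusted p = 0.00149) and Grin3a with -1.001 (SE 0.236, adjusted p = 0.00803), where 8.88% of 9305 genes were called lower and 4.98% higher. Both baselines share the KA libraries. The Grin3a value with PBS sat at the size limit and was -0.98 with the homogenate as a block (adjusted p = 0.00313). Without any 1 of the 12 libraries it was -1.14 to -0.85, with an adjusted p of 0.00254 to 0.0269. Grin3a kept its call in 4 of these 12 fits, and Grin2c in all 12.

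In terms of the ratio, Grin2c fell from a mean IP to input ratio of 7.65 ± 2.83 (SD, n = 3) in AAV control and 6.27 ± 1.51 in PBS to 2.01 ± 0.388 in KA. Grin3a fell from 1.43 ± 0.440 and 1.003 ± 0.300 to 0.494 ± 0.0478. The astrocyte markers moved the same way, with 7 of 11 called lower in this test with either baseline (all genes, 4.32% and 8.88%) and medians of -1.34 and -1.29. Their median log2 difference of IP from input was 3.25 in AAV control, 2.99 in PBS and 1.98 in KA. In KA IP against each control, 4 of 11 were called lower (all genes, 5.22% and 9.34%) and 1 higher (6.39% and 8.08%). Their part in the Grin2c and Grin3a values was not tested. Grin2a had an opposite difference with AAV control as baseline (0.75, SE 0.226, adjusted p = 0.0491, under 0.05 in 4 of 12 fits without 1 library and up to 0.141), its ratios being 0.322, 0.362 and 0.384 in AAV control and 0.516, 0.733 and 0.477 in KA. Those groups did not overlap, but the PBS ratios of Grin2a (0.559, 0.299 and 0.542) spanned the AAV control range and reached into the KA range. Gria2 gave -1.01 with PBS as baseline (SE 0.378, adjusted p = 0.0638, or 0.0357 at -0.93 with the block), and without PBS IP #3 it was -0.56 (adjusted p = 0.127). Grin1 gave 1.05 (adjusted p = 0.0335) with AAV control as baseline when AAV control IP #3 was left out, and its adjusted p was 0.525 to 0.878 without any other library.

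**Figure D4:**
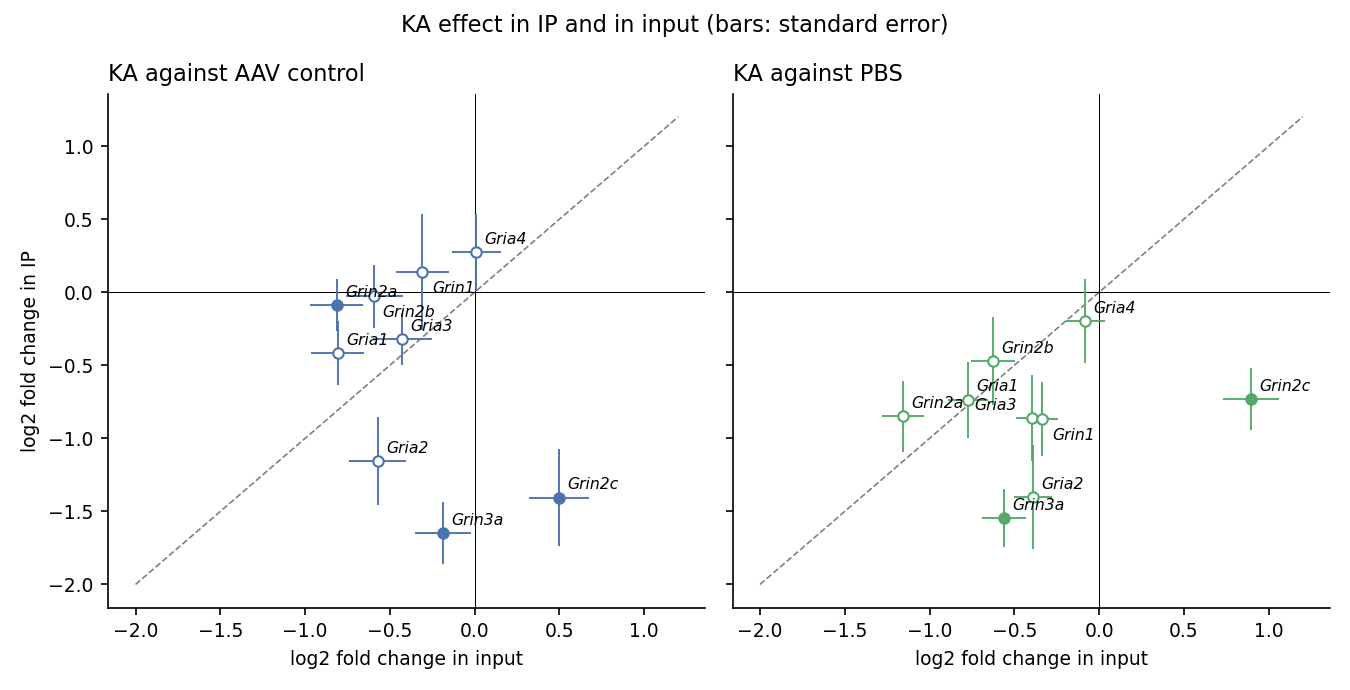
Log2 fold change of KA in IP (vertical) against that in input (horizontal) for the 9 tested subunits, against AAV control and against PBS, with standard errors. The dashed line marks equal change in both, filled points have an adjusted p under 0.05 for the difference, and Grin2c and Grin3a are filled below the line in both panels.

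The make-up of each receptor family was compared as shares of summed FPKM within a library, which no library scaling can move. The size of a share does depend on the gene lengths, 5.034 kb for Grin2c and 24.826 kb for Grin2b. In CPM, without these lengths, Grin2c lay below Grin2b in every IP library (127 against 230 in AAV control IP #1). In IP, Gria2 took a larger share of the summed Gria1 to Gria4 and Gria1 a smaller one than in the input of the same homogenate. The mean difference was 18.3 percentage points for Gria2, higher in 9 of 9 homogenates, and -19.5 points for Gria1, higher in 0 of 9 (exact sign-flip test over 9 homogenates, p = 0.00391, adjusted over 10 measures to 0.00781 for each). Within the summed Grin2a to Grin2d, Grin2c gained 33.3 points in IP (9 of 9), whereas Grin2a lost 13.9 and Grin2b 18.6 points, each with the same exact p. Gria4 differed by 0.813 points (7 of 9, adjusted exact p = 0.026).

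Against the controls these shares moved with KA as well. In IP, the Gria2 share was 46.3, 50.2 and 58.1% in AAV control, 37.6, 53.7 and 55.8% in PBS and 37.3, 36.0 and 41.4% in KA. The KA libraries were below all AAV control libraries and overlapped PBS IP #1. The Grin2c share was 61.2, 57.6 and 40.4% in AAV control IP, 29.8, 48.2 and 25.4% in PBS IP and 37.3, 30.6 and 29.3% in KA IP. It was lower in KA than in AAV control without overlap, but within the PBS range. The Gria4 share, 6.35 to 7.12% in KA IP, was above all AAV control (3.09 to 3.84%) and PBS (3.40 to 4.12%) libraries, as it was in input (4.62 to 5.16% in KA, 2.88 to 3.76% in both controls), although the FPKM of Gria4 itself overlapped between the groups.

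In KA input, the Grin2c share of summed Grin2 transcripts was 10.9, 13.7 and 9.26%, against 5.84, 4.79 and 5.22% in AAV control and 3.43, 3.61 and 3.78% in PBS. The KA libraries were well above both. The Grin2a share was 35.2% on average in KA input, 41.3% in AAV control and 47.3% in PBS, and the Gria1 share 53.3%, 59.0% and 60.4%, each without overlap. Of 10 measures, 5 did not overlap between KA and AAV control in IP, 1 between KA and PBS in IP, 5 between KA and AAV control in input and 9 between KA and PBS in input. The shares within a family add up to the whole, so these are not counts of separate results. No share over all genes applies to such measures, and each one without overlap had an exact permutation p of 0.1. With 3 samples against 3 the two-sided exact permutation test cannot give a p below 0.1, and adjusted values were 0.111 at the lowest. The ratio of summed Gria to summed Grin1 and Grin2 FPKM overlapped between KA and each control in both IP and input.

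**Figure D5:**
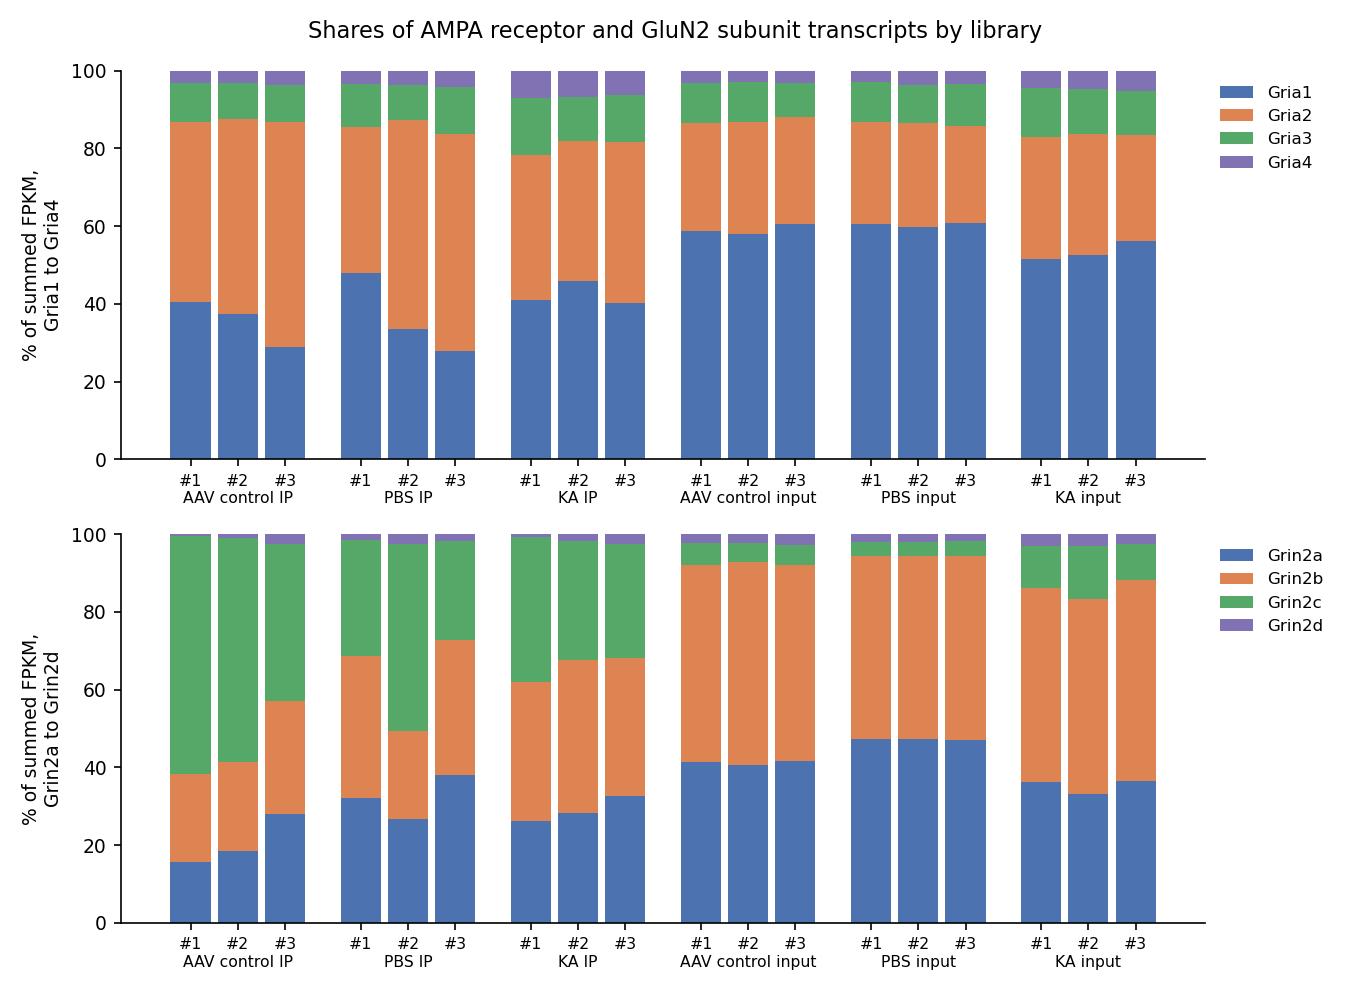
Shares of Gria1 to Gria4 in their summed FPKM and of Grin2a to Grin2d in theirs, in percent, for each of the 18 libraries. Grin2c makes up 25.4 to 61.2% of the Grin2 sum in IP and 3.43 to 13.7% in input, and Gria2 takes a larger share in IP than in input. The size of these shares depends on the gene lengths by which FPKM divides.

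Because the neuronal marker sum itself differed between groups, the subunits were also given per summed pan-neuronal marker FPKM, as log2 ratios within each library. In IP, where the marker sum was higher in KA, 9 of 10 subunits were lower in KA than in AAV control without overlap and 10 of 10 lower than in PBS. Over all genes 77.0% and 66.9% were, so these counts were near the background. The largest differences were those of Grin3a (-2.79 and -2.41) and Grin2c (-2.48 against AAV control), and Gria2 gave -2.30 and -2.20. In input, Gria1 (-0.47 and -0.35) and Grin2a (-0.48 and -0.73) were lower per neuronal marker in KA without overlap against both controls, where 1.17% of all genes against AAV control and 2.84% against PBS were. Gria4 (0.34 and 0.35) and Grin2c (0.82 and 1.31) were higher without overlap, as were 37.1% and 59.9% of all genes, and Grin1 was higher against PBS (0.09). Gria2, Gria3, Grin2b, Grin2d and Grin3a overlapped in input on this scale, and exact permutation p-values could not go below 0.1. The pan-neuronal sum does not separate types of neuron. In the edgeR fits of the input, the CA pyramidal cell markers had median log2 fold changes of -0.73 against AAV control and -0.95 against PBS. Of 6 tested, 0 and 3 were called lower (all genes, 0.185% and 1.09%). The dentate granule cell markers had medians of -0.35 and -0.45, with 0 of 5 called lower in either comparison. Interneuron markers had medians of -0.13 and -0.39. Of 8 tested, 1 and 0 were called lower and 0 and 1 higher (all genes higher, 2.52% and 4.26%). The part of these neuron types in the Gria1 and Grin2a values was not tested.

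PBS injection was compared with AAV alone, which also compares run 3 with runs 1 and 2. No subunit was called by edgeR in IP or in input, and no gene at all was (0% of 10667 and of 10924), while 2 subunits and 1153 genes in IP, and 3 subunits and 901 genes in input, had an unadjusted p under 0.05. DESeq2 also called 0 subunits, with 11 genes higher and 5 lower in PBS IP and 7 higher and 7 lower in PBS input. Without AAV control IP #3, however, Grin1 was called higher in PBS IP (1.57, adjusted p = 0.0133) and Grin2c lower (-1.003, adjusted p = 0.026). With all libraries the Grin2c value in IP was -0.69 (SE 0.33, adjusted p = 0.476), so the control groups themselves were not shown to be alike for this gene.

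The genes that work with these receptors were taken from lists by function. AMPA receptor auxiliary subunits, which set the trafficking and gating of the channel, numbered 16, of which 12 were tested in IP. Against AAV control 3 were called higher in KA IP and 1 lower (all genes, 6.39% and 5.22%). Cnih3, a cornichon protein that slows AMPA receptor closing, went from 4.86, 5.89 and 5.16 FPKM in AAV control IP and 9.48, 4.81 and 8.07 in PBS IP to 25.5, 33.1 and 22.3 in KA IP, without overlap. Its log2 fold change was 2.39 (SE 0.185, adjusted p = 0.000348) against AAV control and 1.86 (adjusted p = 0.000259) against PBS. Shisa9 (1.28) and Shisa8 (1.27), of another auxiliary family, were also higher, and Cacng4, a TARP, was lower (-1.47, adjusted p = 0.0119). Shisa8 was no longer called without KA IP #1 (0.91, adjusted p = 0.138), KA IP #2 (1.29, 0.105), AAV control IP #1 (1.47, 0.0609) or AAV control IP #2 (1.13, 0.129). Against PBS 3 were called higher, Cnih3, Shisa8 (2.12) and Syndig1 (1.26, or 0.97 without KA IP #3), and 0 lower (all genes, 8.08% and 9.34%). The list's median was 0.49 against AAV control and 0.27 against PBS. The pan-neuronal markers were higher as well, 5 of 10 being called against each control (all genes, 6.39% and 8.08%) with medians of 1.17 and 0.96. Their part in the values of the auxiliary and scaffold genes was not tested.

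In the input 0 of 14 tested auxiliary subunits were called against AAV control (all genes, 2.52% higher and 0.185% lower). Against PBS, 2 of 13 were lower, Shisa7 (-1.16) and Cacng3 (-1.03), where 1.09% of all genes were. Cacng3 was at -0.98 to -0.91 and so under the size limit without KA input #1, KA input #2 or PBS input #3. IP lay below input for this list, with 9 of 12 called lower in AAV control, 8 of 12 in PBS and 5 of 13 in KA, where 1 was higher. Of all genes, 13.1%, 12.3% and 4.51% were called lower, and of the 10 pan-neuronal markers 9, 9 and 5 were. In the test of the KA effect in IP against input, Cacng4 was called lower with both baselines (-1.81 and -1.47), as Grin2c and Grin3a were, and Cnih3 was called higher with both (1.74 and 1.40).

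Of 20 postsynaptic scaffold and trafficking genes, 16 were tested in IP, and 4 were called higher and 0 lower in KA than in AAV control (all genes, 6.39% and 5.22%). They were Nptxr (1.75), the receptor of the neuronal pentraxins, Homer1 (1.67), a scaffold that binds metabotropic glutamate receptors and Shank proteins, Dlg3 (1.30), encoding SAP102, and Nsf (1.13), an ATPase that binds GluA2. Nsf lost its call without KA IP #2 (1.19, adjusted p = 0.0805), KA IP #3 (0.85, 0.0755), AAV control IP #1 (1.01, 0.118) or AAV control IP #2 (1.04, 0.109). Against PBS, Homer1, Dlg3 and Nptxr were again among 4 called higher (all genes, 8.08%), and 1 gene, Shank2, was lower (-1.22, adjusted p = 0.00234), where 9.34% of all genes were. In input, Nptx2, a secreted pentraxin that clusters AMPA receptors, was the only one called higher, by 2.06 (SE 0.193, adjusted p = 0.00138) against AAV control and 2.54 (adjusted p = 3.41e-06) against PBS. Of all genes, 2.52% and 4.26% were called higher there. Nptx2 did not reach the FPKM minimum in control IP, where it was at 0.301 to 0.723 FPKM, and it was at 17.4, 14.2 and 17.7 in KA IP. This gene in IP was picked out after its values were seen.

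Of 7 genes for NMDA receptor co-agonist supply and signalling, 6 were tested in IP and 0 were called in either direction against either control (all genes, 5.22% to 9.34%). In input 0 were called against AAV control (all genes, 2.52% higher and 0.185% lower) and 2 were lower against PBS (all genes, 1.09%). They were Ptk2b (-1.46, adjusted p = 0.000142), a tyrosine kinase that regulates NMDA receptors, and Camk2a (-1.09, adjusted p = 0.00105), a kinase of long-term potentiation that was at -0.96 without KA input #1. Among the remaining relatives, Grin3b had 0 to 3 counts per library. Grid1, a delta receptor subunit, was tested outside KA IP and was lower in IP than in input of the PBS group (-1.12, adjusted p = 0.000158).

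As a description, the 9000 other genes with FPKM above 1 in all libraries were ranked by Pearson correlation of log2 CPM with each subunit over the 18 libraries. These points share groups, library type and homogenates. Most like Grin2c were Mmut (0.991), Prxl2a (0.987) and Rorb (0.986), and most like Grin3a were Bmyc (0.945), Dusp22 (0.929) and Prelid3a (0.89). Most like Gria1 were Kctd4 (0.989), Bcl11a (0.984) and Scn8a (0.978), and most like Gria2 were Ddhd2 (0.968), Nfx1 (0.945) and Ttc19 (0.944). Grin2a was nearest to Hectd4 (0.968), Gria3 to Scai (0.952), Grin1 to Cpne6 (0.952) and Gria4 to Hecw1 (0.861). No subunit was among the nearest genes of another.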

How the data were processed

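The authors aligned reads to mm10 and deposited, for each library, whole-number counts and FPKM values per gene symbol. Per the labels, STAR, featureCounts and edgeR were used, without stated versions. The deposited counts are not normalized, and the deposited FPKM equaled count over library total and a fixed gene length within 1% for 99.81% of 16124 genes with at least 20 counts. Strandedness, annotation release and treatment of reads mapping to several places are not given in the sources used here.

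Tests of the counts used the quasi-likelihood functions of edgeR 4.0.16 under R 4.3.3, with TMM factors and the Benjamini-Hochberg adjustment over all genes tested. Each comparison had a fit of its own, limited to genes whose FPKM exceeded 1 in each library compared. A call needed an adjusted p under 0.05 and a log2 fold change of 1 or more in size. The F statistic gave the standard errors. Shares and ratios to neuronal markers (pseudocount 0.01 FPKM) were tested with two-sided exact permutation or sign-flip tests (scipy 1.17.1). Likeness was computed on log2 CPM (prior count 2). The text names all 10 subunits and, of each related list, up to 4 called genes with the smallest p per comparison. The subunits and all lists were chosen with earlier results of these data known. The edgeR steps were tested on simulated data.

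IP and input of 1 number come from the same homogenate, and their residuals correlated at 0.155 to 0.751. Same-numbered KA and AAV control libraries, which share a run, correlated at 0.348 to 0.551, whereas PBS libraries did not pair (-0.294 to 0.355). The reported fits carry no block, and blocked values are given where they change a call. Each sample pools mice, so p-values measure the spread between such pools. Those from run 1 alone rest on 2 samples per group and hold no spread between runs. Alternatives were DESeq2 1.42.0, limma-voom 3.58.1, RLE size factors, no FPKM minimum, a replicate block, run as covariate, run 1 only, 1 fit to all libraries, CPM in place of FPKM, and each library left out. The median library total was 10313125 counts. No 2 libraries of a group agreed within counting noise. Some values of related genes are not reported here.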

Additional observations from a re-analysis of the deposited data

Results flagged for a closer look

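For 3 subunits the effect of KA in IP and that in input had an adjusted p under 0.05 for their difference, by the edgeR test of the difference itself. With AAV control as baseline, the log2 difference of the effects (IP minus input) was -1.89 for Grin2c, -1.44 for Grin3a and 0.75 for Grin2a. With PBS as baseline, it was -1.64 for Grin2c and -1.001 for Grin3a. For Grin2c, the mean FPKM was lower in KA than in both controls in IP and higher in input. The Grin2a difference had an adjusted p of 0.0491, which was 0.0535 under RLE size factors and 0.132 without the FPKM minimum, while with the homogenate as a block the adjusted p was 0.0049. Without 1 library it was under 0.05 in 4 of 12 fits and up to 0.141. With PBS as baseline Grin2a was not past the threshold. Groups of 3 samples were not searched for single outlying libraries.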

How the results depend on the processing

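Of 477 subunit fold changes recomputed under other settings with all libraries or run 1, 455 kept their direction and side of the threshold, and of 594 recomputed without 1 library, 540 did. Dropping the FPKM minimum moved the median of all genes by over 0.1 (log2) in 4 comparisons: IP with input in PBS (0.59), the PBS-baseline difference of effects (-0.57), KA with PBS in IP (-0.56) and PBS with AAV control in IP (0.32). The cause of the changes below was not tested.

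Subunits called lower in IP than input numbered 5 without the FPKM minimum in AAV control, and in PBS 2 with RLE or DESeq2 and 3 with limma-voom, without the minimum or with the replicate block. Lower calls for the PBS-baseline difference numbered 1 under RLE, DESeq2, limma-voom, no minimum or the replicate block. Without 1 library, lower calls numbered 1 to 2 for KA against AAV control in IP, 1 to 4 for KA against PBS in IP, 0 to 1 (and higher calls 0 to 1) for PBS against AAV control in IP, 1 to 3 for IP against input in PBS, 0 to 1 in KA and 1 to 2 for the PBS-baseline difference, and higher calls 0 to 1 for the AAV-baseline difference. Shares without overlap for KA against PBS in IP numbered 2 with CPM and 1 to 4 without 1 library, and in input against AAV control 5 to 8. Subunits per neuronal marker without overlap in input numbered 4 to 7 against AAV control and 5 to 8 against PBS.

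Some log2 differences close to 0 turned. Without 1 library, Grin1 ranged from -0.15 to 0.72, Grin2a from -0.22 to 0.042 and Grin2b from -0.24 to 0.088 in KA against AAV control IP, where Grin2b was 0.046 without the FPKM minimum. Gria4 ranged from -0.39 to 0.24 in KA against PBS IP (0.042 without the minimum) and from -0.069 to 0.076 in KA against AAV control input (-0.025 without the minimum, -0.14 in run 1). In IP against input, Gria2 ranged from -0.12 to 0.35 in AAV control and Grin3a from -0.035 to 0.28 in PBS. For the PBS-baseline difference, Gria1 ranged from -0.13 to 0.22, Gria4 from -0.28 to 0.29 (0.18 without the minimum) and Grin2b from -0.089 to 0.44. With the replicate block, adjusted p-values that crossed 0.05 and are not given above were 0.0979, 0.0554 and 0.0599 for Gria1, Grin2a and Gria3 in KA against PBS IP, 0.0533 for Gria2 in KA against PBS input, 0.0322 and 0.0299 for Gria4 in IP against input of AAV control and KA, 0.0499 for Gria3 in PBS and 0.0374 for Grin2b in the AAV-baseline difference. Depth limited Grin2d, at 10 to 94 counts.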
